A study of Mus musculus with 4 samples.

Results

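REST, the repressor of neuronal genes known in full as RE1-silencing transcription factor, was profiled by chromatin immunoprecipitation and sequencing (ChIP-seq) in murine V6.5 cells, an embryonic stem cell line derived from a C57BL/6-129 cross. The REST library was 1 of 4 in the series, and it is compared here with the pooled reads of the other 3, made with antibodies against Ring1b, MCAF1 and H4K20me3. The members were set by the antibody label, and earlier results of these data were known when they were chosen. All 4 libraries came from the same untreated cell line, grown on irradiated mouse embryonic fibroblasts and moved to gelatin before harvest, for 1 passage in the REST experiment and for 2 passages in the others. The share of fibroblasts left at harvest was not measured. Each antibody had 1 library and no library of unselected chromatin was used here, so antibody and preparation cannot be told apart. Intervals are exact 95% intervals that cover counting error only.

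REST is a zinc finger protein that binds a long DNA element, the RE1 element, near many genes of neuronal function, and it recruits the CoREST and Sin3 corepressor complexes with their histone-modifying enzymes. It is present in embryonic stem cells and in most cells outside the nervous system, and it is lost as neurons mature. The comparison profiles differ in kind: Ring1b carries the histone ubiquitin ligase activity within Polycomb repressive complex 1, MCAF1 (ATF7IP) acts together with SETDB1, a histone methyltransferase, and H4K20me3 is a histone mark of constitutive heterochromatin. A factor that binds DNA directly usually gives point-like signal, while Polycomb proteins and histone modifications can cover longer stretches. Genes and sequences at the sites were not analysed here, because no genome or annotation of the mm8 build was used; sites are named by mm8 position.

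The REST library gave 3063633 distinct read positions on chromosomes 1 to 19, against 3023138 for Ring1b, 10818054 for MCAF1 and 7655438 for H4K20me3. Reads were counted in bins of 500 bp, and the other 3 libraries were scaled to the REST total and averaged. A fold is the REST read number plus 1 over this average plus 1. A bin was called REST-high at a fold of at least 5 with at least 10 REST reads, and REST-high bins with at most 1 bin between them formed a site. Of 4052418 bins with a read of any library, 1267 were REST-high (0.0313%), and they formed 1200 REST sites. An average bin held 0.756 REST reads.

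REST occupied points. Of the 1200 sites, 1133 consisted of a single 500-bp bin (94.4%, 93.0% to 95.6%), 63 covered 1000 bp and 4 covered 1500 bp. No REST site held more than 2 REST-high bins. Applied to each other library at its full depth, the same rule called 9897 bins for Ring1b (0.244%), 2312 for MCAF1 (0.0571%) and 5006 for H4K20me3 (0.124%). Ring1b had 754 sites of at least 4 high bins and H4K20me3 had 70, where REST and MCAF1 had 0. The rule was then repeated after all libraries were reduced to 3023138 reads. It gave REST 1262 high bins (0.0358% of bins) in 1190 sites, of which 94.0% were single bins (92.5% to 95.3%). Ring1b had 10174 high bins (0.289%) in 3026 sites, 54.7% of them single bins (52.9% to 56.5%), and its widest site held 57 high bins. H4K20me3 had 750 high bins (0.0213%) in 603 sites, 86.4% of them single bins (83.4% to 89.0%). MCAF1 had only 53 high bins (0.00150%) in 52 sites, so its share of single bins was poorly determined (98.1%, 89.7% to 100.0%). The REST share of single bins lay above the Ring1b and H4K20me3 intervals, and it lay inside the MCAF1 interval. At full depth, where MCAF1 had 2301 sites, 99.5% of them were single bins (99.1% to 99.8%), a larger share than for REST. The minimum of 10 reads was less strict for MCAF1 there. For MCAF1 9 reads reached 3 times the genome mean of a bin, while 10 REST reads were 13.2 times the REST mean.

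The shape within a site was measured with the strands apart. Reads of both strands entered the call of a site, so the height of its profile is partly selected. The summit within it was set by plus-strand reads alone, and the minus-strand reads were then averaged around it. Minus-strand REST reads formed 1 narrow peak 93 bp downstream of the plus-strand summit, 132 bp wide at 0.5 of its height and 86.2 times the level found 1.5 to 2.9 kb away. At equal depth the width was 131 bp for REST, 531 bp for Ring1b, 345 bp for H4K20me3 and 259 bp for MCAF1, and the peak stood 85.3, 6.69, 7.56 and 20.1 times above the flanks. By this measure REST gave the narrowest and steepest of these mean profiles, with the MCAF1 curve resting on 52 sites. The baseline at 1.5 to 2.9 kb can lie inside broad Ring1b sites, of which 745 held at least 4 high bins at equal depth. The Ring1b height over its flanks and its width can therefore be understated. At full depth the MCAF1 width was 206 bp over 2301 sites and its peak 5.68 times the flanks. The strands of 1 site are not fully independent, since copies of 1 amplified fragment can be read from either end.

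**Figure D1:**
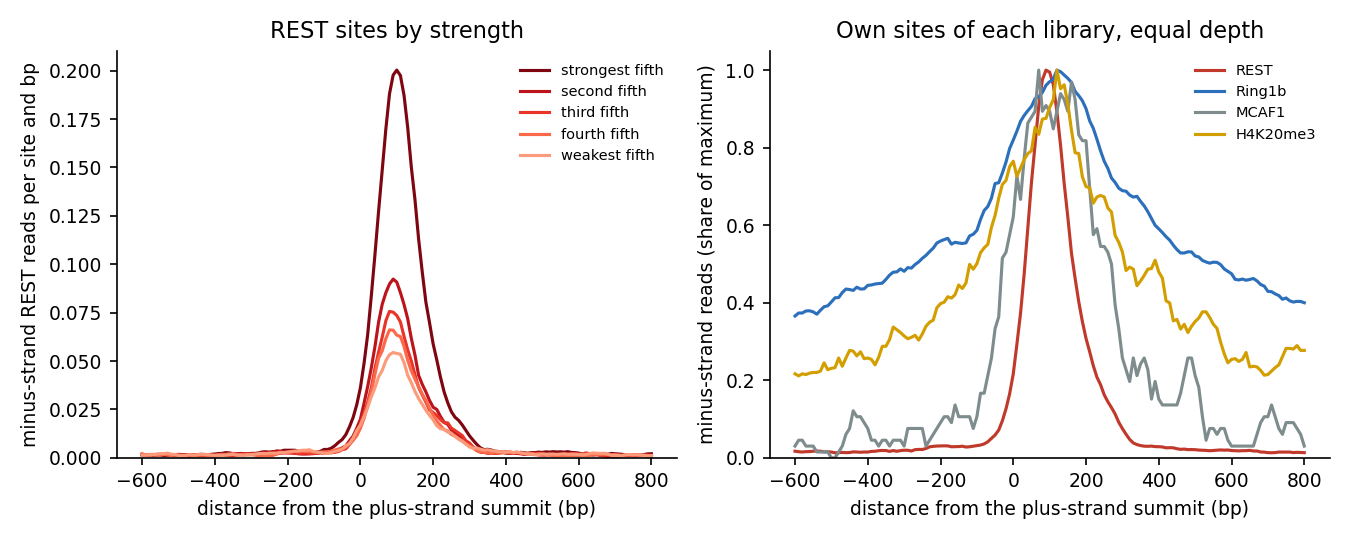
Mean minus-strand read profile around summits placed by plus-strand reads. Left, reads per site and bp at REST sites split into 5 groups of 240 by fold; right, each library at its own sites at equal depth, as a share of the maximum. All 5 REST groups peak near 100 bp with similar width, and the REST curve on the right is narrower than the Ring1b and H4K20me3 curves.

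The shape was nearly the same in strong and weak sites. The REST sites were ordered by fold and divided into 5 groups of 240. From the strongest to the weakest group the width at 0.5 of the height was 128, 127, 125, 139 and 145 bp. The minus-strand peak lay 104, 91, 81, 92 and 107 bp from the plus-strand summit, with no order by strength. In single sites the median minus-strand position lay 110 bp downstream of the median plus-strand position (quartiles 91.0 and 132 bp). It was downstream in 1193 of the 1199 sites that had reads of both strands and upstream in 6. Reads of each strand were assigned to a site after their move of 75 bp, which places the minus-strand window downstream of the plus-strand window. Evenly spread reads would also give a downstream offset, so this count and the median offset are partly set by the move. In 1188 of 1200 sites the plus strand held between 20% and 80% of the reads, and 1 site had reads of 1 strand only. Across the 1200 sites the plus and minus read numbers had a Spearman correlation of 0.736, which describes sites of 1 library that share its depth and its calling threshold. The protocols give inserts of 50 to 200 nt, and the offsets fall in that range, although they are short by 1 read length: minus-strand positions in the deposited files mark the leftmost base.

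REST sites differed in strength, over a narrower range than Ring1b sites. The folds ran from the threshold of 5 to 41.6 with a median of 7.30, and the 99th percentile of 27.3 was 3.74 times the median. At equal depth this ratio was 3.62 for REST, 7.36 for Ring1b, 2.54 for H4K20me3 and 2.65 for the 52 sites of MCAF1. A fold of at least 10 was reached by 258 sites (21.5%) and a fold of at least 20 by 38 sites (3.17%), while 292 sites (24.3%) lay below 6. In read numbers, the highest bin of a site held 10 to 308 REST reads with a median of 22.0, which is 13.2 to 407 times the genome mean with a median of 29.1 times. The strength distribution was a continuous slope with no gap between strong and weak sites. All sites together took 36865 reads, 1.2% of the library (1.19% to 1.22%). The strongest group of 240 sites held 40.2% of these reads and the weakest 12%. The 120 sites with most reads held 31.4%.

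**Figure D2:**
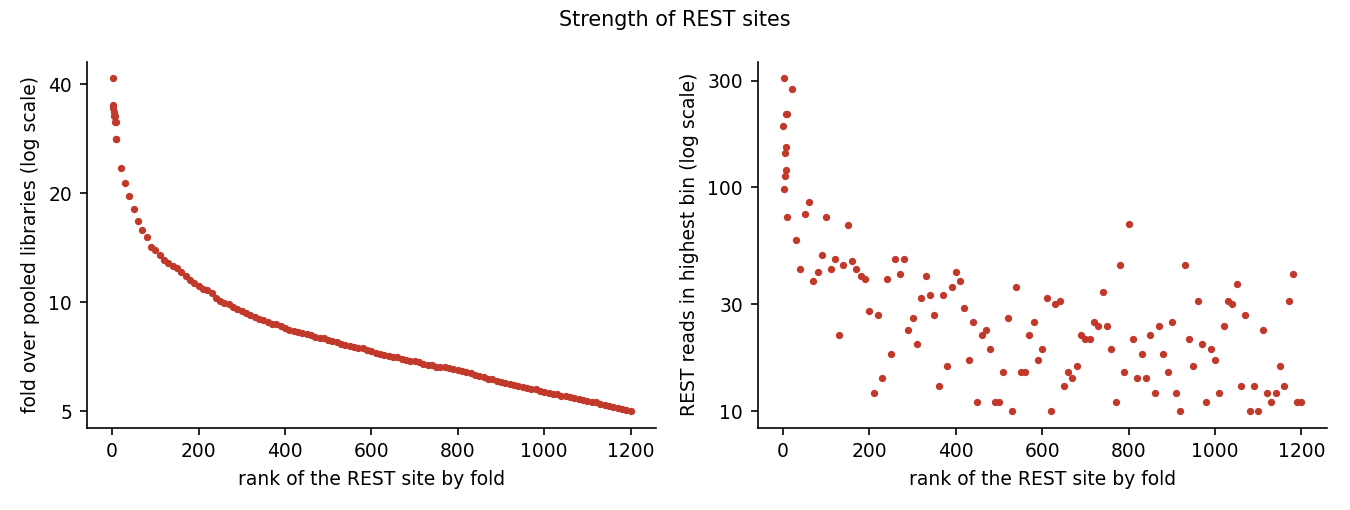
Strength of REST sites by rank; the sites ranked 1 to 10 and every 10th rank after them are shown. Left, fold over the pooled libraries on a log axis, from 41.6 down to the threshold of 5; right, REST reads in the highest bin on a log axis, which scatter between 10 and 308 and follow the fold only loosely.

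The strongest site by fold lay on chromosome 8 at 14072501–14073000, with 188 REST reads (162 to 217). The scaled read numbers there were 3.04 for Ring1b, 6.80 for MCAF1 and 0.8 for H4K20me3, which gave 41.6-fold. The REST count lay far above each of the 3 scaled numbers, which follows from choosing the site of highest fold.

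Of the 10 highest sites 4 lay on chromosome 4, which held 121 of all 1200 sites. Its bin at 139555501–139556000 held 98 REST reads (79.6 to 119), 35.0-fold. About 24.5 kb away, the bin at 139531001–139531500 held 308 REST reads (275 to 344), the most of any site, with 14.2 scaled Ring1b reads, at 34.3-fold. The sites at 150448001–150449000 (143 reads in the highest bin, 32.8-fold) and 154703001–154703500 (212 reads, 31.4-fold) were the others on this chromosome. The remaining 5 were chromosome 14 at 62667001–62667500 (112 reads, 33.5-fold), chromosome 9 at 21700501–21701000 (120 reads, 32.7-fold), chromosome 11 at 118400501–118401500 (152 reads, 31.5-fold), chromosome 19 at 4989001–4989500 (212 reads, 28.3-fold) and chromosome 2 at 33912501–33913000 (74 reads, 58.1 to 92.9, 28.2-fold). Of these 10 sites, 8 were single bins, and the pooled libraries had between 1.66 and 8.01 scaled reads in the highest bin.

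Fold and read number ranked the sites differently. Only 4 of the 10 sites with most REST reads were among the 10 highest by fold. The site with the second most reads, chromosome 7 at 6014001–6014500, had 276 REST reads (244 to 311) but also 24.3 scaled Ring1b reads, which placed it at rank 20 with 23.5-fold. The site on chromosome 2 ranked 10th by fold with 74 REST reads, beside 2.03 scaled Ring1b reads. Summed over the 3 other libraries without averaging, REST was enriched 45.5 times (30.7 to 69.8) at the site on chromosome 8 and 38.0 times (28.1 to 52.3) at the one on chromosome 7, intervals that overlap.

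Read numbers varied widely at the threshold. The last 3 sites inside it had folds of 5.02, 5.01 and 5.0 with 13, 19 and 11 REST reads, and the 3 above them, at folds of 5.03, 5.03 and 5.02, had 23, 61 and 24. The first 3 bins outside had folds of 4.99, 4.99 and 4.98 with 17, 15 and 19 reads. Of 4534 bins with at least 10 REST reads, 27.9% passed the fold, and 329 lay between folds of 4 and 5. Of the 4 sites of 1500 bp, the widest class, the 3 with the highest folds were chromosome 9 at 108683001–108684500 (23.4-fold), chromosome 6 at 44988501–44990000 (12.8-fold) and chromosome 5 at 137314501–137316000 (8.93-fold). Each consisted of 2 high bins with 1 bin between them.

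Reads at repeated positions were more frequent inside the sites. They made up 22.4% of REST reads in sites and 12.5% outside. In the 10 highest sites they took 19.6% to 51.1%. Only 1 read per position and strand entered the counts. The highest site on chromosome 8 had 359 reads before and 188 after this step, and the site with 308 distinct reads on chromosome 4 had 630 before it. When all reads were kept, the 99th percentile of folds rose to 4.66 times the median. Whether the repeated positions are amplified copies or separate fragments was not tested.

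The other 3 libraries also rose at REST sites, within the limit that the fold rule sets on them. Within 100 bp of the summit REST density was 86.5 times the genome mean (85.5 to 87.4), Ring1b 8.67 times (8.36 to 8.98), MCAF1 3.85 times (3.74 to 3.95) and H4K20me3 2.20 times (2.11 to 2.30). At 4 to 5 kb the values were 1.48, 1.69, 1.33 and 1.56 times. At that distance Ring1b was denser (1.65 to 1.73) than REST (1.44 to 1.52), and the order was the reverse at the summit. At 500 to 1000 bp REST had fallen to 1.85 times (1.79 to 1.91). Since the sites were chosen for a high REST reading and a low pooled one, these levels describe the selected sites and compare no antibodies.

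The placing of the other libraries' reads around the summit did not enter the choice of sites beyond the 500-bp bin. At REST summits the Ring1b plus- and minus-strand profiles were 128 and 125 bp wide at 0.5 of the height and 8.58 and 8.24 times their flanks, and their peaks lay 69 bp apart. The MCAF1 profiles were 153 and 168 bp wide, 4.01 and 3.67 times their flanks, with peaks 64 bp apart. H4K20me3 had no central peak of this kind, and its plus- and minus-strand maxima lay at -217 and 194 bp and reached only 1.78 and 1.73 times the flanks. REST itself measured 105 bp on each strand around these summits. The summits were placed by REST reads of both strands within a window of fixed size. The REST width here is therefore largely set by that window. It gives no REST width with which the Ring1b and MCAF1 widths can be compared. Sites called for Ring1b had a width of 527 bp, measured on minus-strand reads around summits placed by plus-strand reads alone. The fold rule also limits Ring1b reads at REST sites, so that width is not directly comparable with the Ring1b widths at REST summits.

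**Figure D3:**
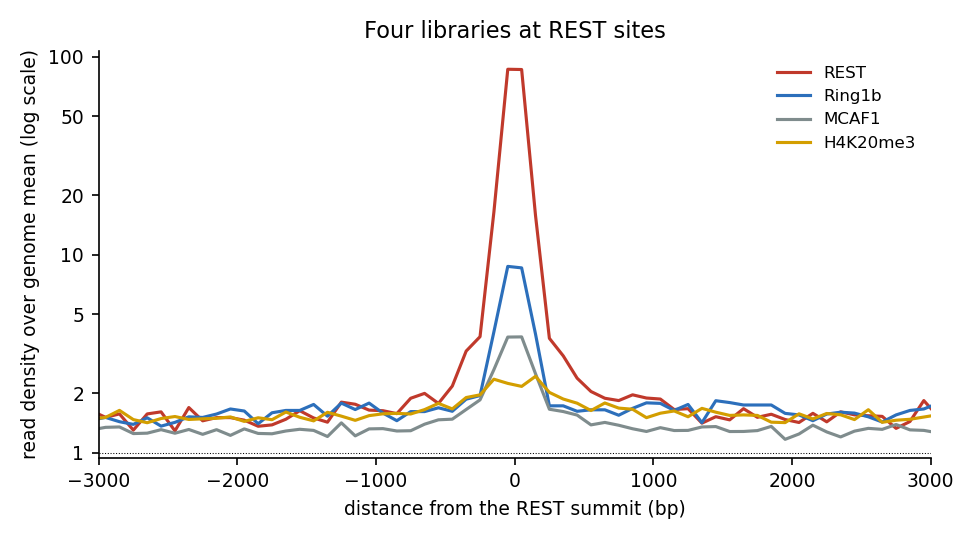
Read density of the 4 libraries within 3 kb of REST summits, over the genome mean of each library, on a log axis. REST rises to 86.5 times within 100 bp, Ring1b to 8.67 and MCAF1 to 3.85 times at the same point, and H4K20me3 stays between 1 and 3 times.

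Ring1b reads were unevenly spread over the sites. In 626 of 1200 REST sites (52.2%) Ring1b was at least 3 times its genome mean, against 5.06% of all covered bins. In 134 of the sites it had 0 reads, where 60.6% of all covered bins had 0. MCAF1 reached 3 times its mean in 358 sites (29.8%) and in 2.84% of all bins, and H4K20me3 in 283 sites (23.6%) and in 6.47% of all bins. In a single bin this level took 3 reads of Ring1b, 9 of MCAF1 and 6 of H4K20me3, so the shares of different libraries are not comparable with each other. With Ring1b left out of the pooled libraries 1482 sites were called, and 1148 of the 1200 were among them.

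REST sites were spread thinly and unevenly along the chromosomes. The median distance between neighbouring summits was 533 kb, with quartiles of 143 and 1811 kb. Of 1181 distances, 4 were at most 2 kb, 31 lay between 2 and 10 kb, 203 between 10 and 100 kb, 517 between 100 kb and 1 Mb, 304 between 1 and 5 Mb and 122 above 5 Mb. A neighbour within 10 kb was found for 70 sites (5.83%, 4.58% to 7.31%) and within 100 kb for 414 (34.5%, 31.8% to 37.3%). Strength made little difference to isolation: from the strongest to the weakest group 7.92%, 5.0%, 4.17%, 6.25% and 5.83% had a neighbour within 10 kb, with overlapping intervals.

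Close packing of called sites was less frequent than for Ring1b and H4K20me3. At equal depth 6.64% of REST sites had a neighbour within 10 kb (5.29% to 8.21%), against 21.6% of Ring1b sites (20.2% to 23.1%) and 23.2% of H4K20me3 sites (19.9% to 26.8%). Of the 52 MCAF1 sites 0 had such a neighbour, which allows up to 6.85%. The order changed at longer range. Within 100 kb the shares were 34.0% for REST (31.3% to 36.8%), 31.7% for H4K20me3 (28.0% to 35.6%) and 47.1% for Ring1b (45.3% to 48.9%). The REST and H4K20me3 intervals were thus apart within 10 kb and overlapped within 100 kb. Having a neighbour is mutual, so sites are not independent, and all intervals for shares with a neighbour can be too narrow. A larger number of sites by itself shortens distances, and Ring1b had 3026 sites to the 1190 of REST, while H4K20me3 had 603. High bins were joined over at most 1 bin, so a broad stretch of signal can be split into several sites that count as neighbours. The part of this in the Ring1b and H4K20me3 shares was not tested.

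**Figure D4:**
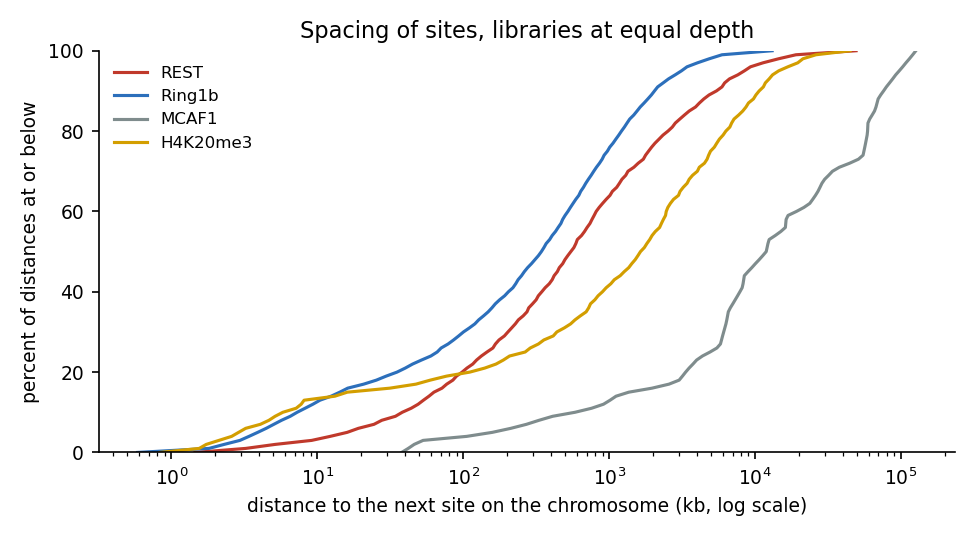
Cumulative share of distances between neighbouring sites, by library, all libraries at equal depth; the distance axis is logarithmic. The REST curve starts to the right of Ring1b and H4K20me3 below 10 kb and crosses the H4K20me3 curve near 100 kb; the MCAF1 curve rests on 35 distances.

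The closest REST summits lay on chromosome 5, where 37026171 and 37027715 were 1544 bp apart with folds of 5.23 and 7.61. The next pairs were on chromosome 11 (118501655 and 118503258, 1603 bp) and chromosome 3 (94563313 and 94565137, 1824 bp). The densest stretches of 100 kb held 4 sites each, and there were 6 of them, with 24 more that held 3. One such stretch, on chromosome 5, ran from 37528948 to 37601669 and had folds of 8.72, 5.74, 8.21 and 6.81. The others that the naming rule picked were neighbours on chromosome 11. Together they made a run of 8 sites over 193 kb, from 118362001 to 118554588, with folds from 5.54 to 31.5. Its strongest member is one of the 10 highest sites in the genome, and the other 7 were at most 10.1-fold.

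At a scale of 1 Mb most of the genome had no REST site. At equal depth 71.8% of 2384 bins of 1 Mb held none, against 42.6% for Ring1b, 82.1% for H4K20me3 and 97.9% for MCAF1. The variance of the site number per bin was 2.15 times its mean for REST, 2.35 times for Ring1b, 1.69 times for H4K20me3 and 1.09 times for MCAF1, whose 52 sites leave few bins with more than 1. The mean was 0.499 sites per bin for REST, 1.27 for Ring1b and 0.251 for H4K20me3. The share of empty bins and the variance ratio both depend on this mean, so they do not rank the libraries by unevenness. The fullest bins, chosen after their values were seen, were chromosome 5 at 37000001–38000000 with 11 sites and chromosome 11 at 118000001–119000000 with 10. The longest stretch without a REST site covered 54.2 Mb of chromosome 8, between summits at 18406606 and 72630937, followed by 31.1 Mb of chromosome 3 and 27.7 Mb of chromosome 5. Chromosomes 8 and 5 therefore carried both long empty stretches and either the highest site or the fullest 1-Mb bin.

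Chromosomes differed in the number of sites. The autosomes had 0.507 sites per covered Mb, from 0.869 on chromosome 11 (0.709 to 1.05) to 0.186 on chromosome 3 (0.124 to 0.267), a ratio of 4.68. Chromosome 4 followed with 0.812 (0.673 to 0.970), chromosome 5 with 0.764 (0.629 to 0.920) and chromosome 7 with 0.713 (0.578 to 0.871), and these 4 intervals overlap. With bins moved by 250 bp, or with at least 15 reads per bin, chromosome 4 was the densest. Chromosome 1 was the second sparsest with 0.287 (0.217 to 0.374). The median fold of a chromosome's sites lay between 6.86 and 8.05, on folds that start at the threshold of 5, while the highest fold ranged from 13.3 on chromosome 3 to 41.6 on chromosome 8. At a fold of 10 the densest chromosome was chromosome 7 and the sparsest chromosome 13, and their ratio was 13.7, so both the rank of chromosomes and the size of their difference depend on the threshold. Across the 19 chromosomes site density had a Spearman correlation of 0.728 and a Pearson correlation of 0.758 with the read density of the pooled libraries outside the sites. This describes chromosomes read in the same libraries at the same depth, and base composition and gene content were not measured. Outside the sites REST had 1661 reads per covered Mb on chromosome 11 and 1065 on chromosome 3. A bin on chromosome 3 therefore needed more enrichment over its surroundings to reach 10 reads. The part of this in the difference between chromosomes was not tested.

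**Figure D5:**
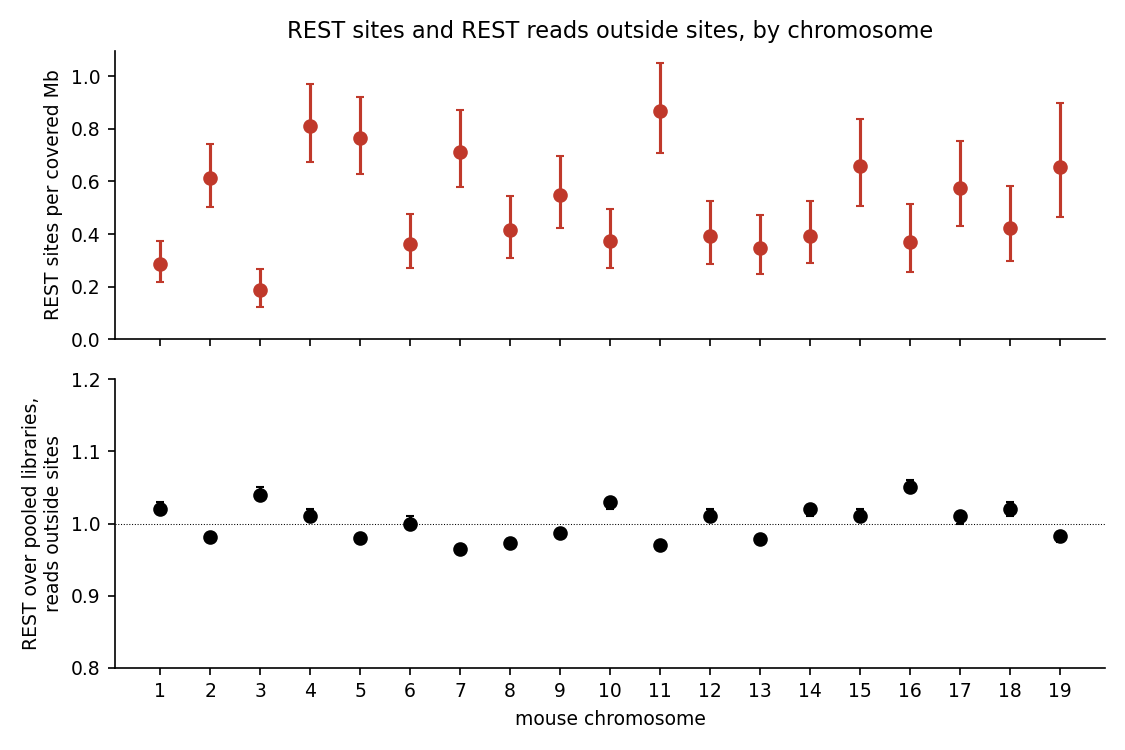
REST by chromosome. Above, sites per covered Mb with exact Poisson intervals, highest on chromosome 11 and lowest on chromosome 3; below, REST reads outside the sites over the pooled libraries, with counting intervals that are mostly smaller than the points, between 0.964 and 1.05.

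Outside the sites REST followed the other libraries at the scale of chromosomes. The ratio of REST to the pooled libraries ranged from 0.964 on chromosome 7 (0.959 to 0.968) to 1.05 on chromosome 16 (1.05 to 1.06). The single comparisons spread more, from 0.917 against Ring1b on chromosome 19 to 1.10 against Ring1b on chromosome 16. These departures exceed counting error, and with 1 library per antibody they have no replicate check.

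Gain of REST over 10 kb coincided with sites to a degree that depended on the threshold. Bins of 10 kb were called REST-high at a fold of at least 2 with at least 30 REST reads, which 698 of 236591 covered bins met (0.295%). Of these, 583 overlapped a REST site (83.5%, 80.6% to 86.2%), where 0.503% of all covered bins did. At a fold of at least 1.5 there were 2108 such bins, and 40.1% of them overlapped a site. Both calls use the same REST reads, so this overlap describes how the gain was distributed. In the other direction 49.7% of the sites lay in a REST-high 10-kb bin (46.8% to 52.5%). The highest 10-kb bins were chromosome 12 at 43840001–43850000 (84 REST reads, 15.9-fold), chromosome 4 at 150440001–150450000 (287 reads, 12.8-fold) and chromosome 15 at 72390001–72400000 (165 reads, 12.6-fold), and sites within them held 75, 262 and 160 of those reads.

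The 115 REST-high 10-kb bins without a site were weak, with a median of 2.13-fold and a highest value of 3.50-fold. That highest bin, on chromosome 7 at 123820001–123830000, held 37 REST reads (26.1 to 51) against 10.1, 11 and 8.40 scaled reads of Ring1b, MCAF1 and H4K20me3, and its fullest 500-bp bin held 12 REST reads at 4.48-fold, just below the threshold. On chromosome 6 at 84850001–84860000 the 37 REST reads were spread over 15 bins of 500 bp with at most 6 in any, at 3.18-fold. The third, chromosome 8 at 84900001–84910000, held 30 reads at 2.94-fold, also over 15 bins. In bins with at least 10 pooled reads the fold had a median of 0.951, with 5th and 95th percentiles of 0.515 and 1.52 and a 99th of 1.91. A typical 10-kb bin held 11 REST reads, so counting error alone makes these folds uncertain.

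Bins of 10 kb in which the pooled libraries exceeded REST were mostly Ring1b bins. In 1696 bins of 10 kb (0.717%) the fold was at most 0.5 with at least 30 pooled reads. Ring1b had the highest scaled number in 1552 of them (91.5%), H4K20me3 in 139 and MCAF1 in 5. The lowest, on chromosome 12 at 9600001–9610000, held 16 REST reads (9.15 to 26) against 1098 scaled Ring1b, 21.0 MCAF1 and 32.0 H4K20me3 reads. The MCAF1 number lay inside the REST interval and the H4K20me3 number above it. On chromosome 2 at 116240001–116250000 REST had 5 reads (1.62 to 11.7), below all 3 other libraries, with 326 scaled Ring1b, 15.3 MCAF1 and 20.4 H4K20me3 reads.

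REST reads were less concentrated than Ring1b reads. At equal depth the fullest 1% of 10-kb bins held 4.97% of REST reads, 16.3% of Ring1b, 5.04% of H4K20me3 and 3.64% of MCAF1 reads. The bins were ranked separately in each library and include those with high counts in all 4. By the calling rule, REST sites took 1.2% of REST reads at equal depth (1.19% to 1.21%). The corresponding shares were 12.4% for Ring1b, 0.362% for H4K20me3 (0.356% to 0.369%) and 0.0260% for MCAF1 (0.0242% to 0.0279%).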

How the data were processed

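The members and settings were chosen with earlier results of these data known. The deposited values are signed read positions, which the authors did not normalise. Per the file headers, reads were aligned with Bowtie to mm8 (version not given in the sources used here), keeping reads with at most 2 locations, with a seed of 26 bases for REST and Ring1b and 36 for MCAF1 and H4K20me3. Per the labels' protocols, chromatin was sonicated to 500 bp on average, amplified over 18 cycles and cut at 150 to 350 bp (REST, H4K20me3) or 150 to 300 bp (Ring1b, MCAF1). In each library 2 to 23 minus-strand reads lay within the first 25 bases of sequenced chromosome starts, where the 5′ end of such a read cannot lie, so positions were read as leftmost bases.

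Reads with 1 location on chromosomes 1 to 19 were reduced to 1 per position and strand and moved 75 bp towards their 3′ end. Libraries were scaled to equal totals, and a pseudocount of 1 read was added to both terms of a fold. Profiles were smoothed over 51 bp and summits set by windows of 101 bp. The coverage of a bin means at least 1 read of any library. Coordinates count from 1. No test compared antibodies, since each had 1 library. Intervals are Clopper-Pearson for shares and exact Poisson for read numbers, and amplified reads are not independent molecules. Named regions were the 10 highest sites, the 3 widest, those at the threshold, the 3 densest stretches of 100 kb, the 3 highest REST-high 10-kb bins without a site and the extreme chromosomes; others were named after their values were seen. Calling was tried on simulated data, with sites planted over a background of MCAF1 reads. This gives no rate of false calls in the REST library. Versions were scipy 1.17.1 for intervals and numpy 2.4.6 for counting under Python 3.11.15, with matplotlib 3.10.9 for figures.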

Additional observations from a re-analysis of the deposited data

Results flagged for a closer look

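Reads left out of the comparisons, those with 2 reported locations and those on the X chromosome, were counted separately. REST reads with 2 reported locations were 12.4 times as dense in the REST sites as in an average covered bin (11.8 to 13.0), with 1645 distinct entries. They occurred in 531 of the 1200 sites, at least 5 in each of 69 sites and up to 99 in 1, and 10 sites held 26.3% of them. Such reads of Ring1b were at 1.75 times (1.51 to 2.01), those of MCAF1 at 0.453 times and those of H4K20me3 at 0.470 times. Each such read is listed at both of its locations, so an entry need not come from the site.

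On the X chromosome, which was left out of the calls, the same rule gave 3 REST sites. This was 0.0200 per covered Mb (0.00413 to 0.0585), below the 0.507 of the autosomes, with the highest at 12.9-fold. REST reads there had 0.332 times the autosomal density, so a bin needed more enrichment over its surroundings to reach 10 reads. The part of this in the low site number was not tested.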

How the results depend on the processing

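No paired analysis was possible because each antibody had 1 library. The peak width stayed at 128 to 132 bp and the distance of the minus-strand peak at 91 to 104 bp under all alternatives run for them. The number of sites stayed within 1.5 times of 1200 under 13 of the 15 alternatives run, and became 1860 at a fold of 3 and 258 at a fold of 10. A similar number did not mean the same sites: with bins moved by 250 bp 1194 sites were called, and 985 of the 1200 had a counterpart within 500 bp. Placing minus-strand reads by their 5′ end, chosen after the data were examined, gave 1192 sites.

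The following values moved beyond the range set for them. For shares, distances and ratios this range was an interval of counting error, which for the chromosome ratio covered the densest chromosome only. For numbers of sites or bins the range was 1.5 times either way. At a fold of 10 the sites took 0.491% of reads, the 99th percentile of folds was 2.64 times the median, the median distance was 2762 kb, 1.55% had a neighbour within 10 kb and the ratio of the extreme chromosomes was 13.7. With at least 15 reads per bin the share of reads was 1.09% and the median distance 648 kb. With all reads kept the share was 1.56%, the percentile ratio 4.66, the chromosome ratio 3.44 and the share of REST-high 10-kb bins with a site 73.0%. Without Ring1b in the pool the share of reads was 1.41%, the percentile ratio 5.03 and the median distance 453 kb. The share of REST-high 10-kb bins with a site was 86.4% when libraries were scaled by their median bin, 77.7% at equal depth, 71.9% without MCAF1 and 73.0% without H4K20me3. At a 10-kb fold of 1.5 there were 2108 such bins, 40.1% of them with a site. Lowering the minimum to 6 reads gave 1603 sites and raising it to 15 gave 933, both inside the range of 1.5 times. A stricter fold or read minimum leaves fewer sites by construction; the cause of the other shifts was not tested.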
